A study of Mus musculus with 16 samples.

Results

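The 10 genes described here are the core thermogenic and brown fat identity genes Ucp1, Cidea, Dio2, Elovl3, Kcnk3, Otop1, Ppargc1a, Ppargc1b, Prdm16 and Ebf2. They were chosen by name, with earlier results of these data known, among the 22911 genes that could be named on the array. Each was found through the RefSeq transcript that the scanner file gives for its probes. All 10 were on the array, on 13 probes: Otop1, Ppargc1a and Ppargc1b had 2 probes each and the others 1. The study asked how loss of phosphoglycerate mutase 1 (Pgam1), a glycolytic enzyme, changes brown adipose tissue (BAT) and gonadal white adipose tissue (gWAT). RNA from both tissues was hybridized to 1-colour arrays, 16 in all, with 4 for each tissue and genotype. The Adipo-Pgam1 KO mice were Adipoq-Cre+; Pgam1 flox/flox, and the controls, their littermates, were Adipoq-Cre- with the same Pgam1 flox/flox alleles, so both genotypes carried the floxed allele. The Adipoq promoter drives Cre in brown and white adipocytes, and other cells of the tissue keep the gene. All mice were male C57BL/6NCrSlc, kept at 23 °C with 12 h of light on normal food, and 16 weeks old, except that replicate 4 of the KO mice was 14 weeks old in both tissues.

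Brown adipocytes burn fatty acids to make heat. Noradrenaline released in the cold acts on their β-adrenergic receptors, raises cyclic AMP and, through the coactivators Ppargc1a and Ppargc1b, increases transcription of mitochondrial genes and of Ucp1, which lets protons return into the mitochondrial matrix without making ATP. Prdm16 and Ebf2 are transcriptional regulators that set and keep the brown fate, and cells in white depots that take on part of this program are called beige. Ucp1, Cidea and Elovl3 are widely used to tell brown or beige fat from white fat.

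Levels are given as log2 signal over the 75th percentile of the array, so that 0 is that percentile and a difference of 1 is a factor of 2. The same probe is compared between groups, never one probe with another. Between 50% and 62.2% of the probes of an array were marked well above background by the scanner software, and no spot was saturated. The arrays lay on 3 slides: the KO arrays of each tissue shared a slide with 1 control of that tissue only, so the estimate with the slide as a block is the KO mean minus that control, replicate 4. Pgam1 itself was lower in BAT of Adipo-Pgam1 KO mice, with a log2 change of -1.74 (standard error 0.11), but higher by 0.95 (standard error 0.19, limma, adjusted p = 0.014) in gWAT of the arrays that carry the KO label. A second Pgam1 probe changed by -1.65 in BAT (limma, adjusted p = 1.03e-05) and by 1.02 in gWAT (adjusted p = 0.00945). Where the probes lie relative to the floxed exons is not given in the sources used here, and the cause of the gWAT direction was not tested. The gWAT arrays are therefore called by their label, and every direction given for gWAT rests on it. All 8 adipocyte markers were well above background on every array. In BAT of Adipo-Pgam1 KO mice all 8 were lower (between 6 and 8 under the other scalings), with a summed linear level of 981 to 1380 against 2970 to 3500 in controls, and 6 of 8 macrophage markers were higher, with a summed level of 88.9 to 131 against 28.2 to 39.3. The part of these cells in the results below was not tested, and in bulk tissue fewer cells of a type and less RNA per cell cannot be told apart.

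The promoters are shown first, because cyclic AMP signalling acts on many of its target genes through the TGACGTCA element and its TGACG core, and nuclear receptors through AGGTCA. The RefSeq promoter table used here (GRCm38.p6) held 5 of the 10 genes, Ucp1, Dio2, Otop1, Ppargc1a and Prdm16. The 250 bases before the start are printed 5′ to 3′ on the gene's strand for the 3 with a match, and for Otop1. By its brighter probe only, Otop1 changed most of the 10 in the comparison of the tissues. Capitals mark matches on either strand to TGACGTCA, to its core TGACG, to the half-site AGGTCA or to the EBF motif CCCNNGGG, where TGACG lies inside TGACGTCA.
Ucp1, chr8:83290098-83290347, plus strand: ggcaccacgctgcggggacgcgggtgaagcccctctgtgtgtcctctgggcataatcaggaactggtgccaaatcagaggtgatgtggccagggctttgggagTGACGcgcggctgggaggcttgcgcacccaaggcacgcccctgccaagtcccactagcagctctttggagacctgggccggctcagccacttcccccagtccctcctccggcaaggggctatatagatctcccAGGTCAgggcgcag
Dio2, chr12:90739039-90739288, minus strand: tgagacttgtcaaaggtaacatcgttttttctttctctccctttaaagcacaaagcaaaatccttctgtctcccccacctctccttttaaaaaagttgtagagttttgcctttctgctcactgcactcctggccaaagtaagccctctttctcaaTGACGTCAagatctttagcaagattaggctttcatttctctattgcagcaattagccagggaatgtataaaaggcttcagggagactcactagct
Ppargc1a, chr5:51567726-51567975, minus strand: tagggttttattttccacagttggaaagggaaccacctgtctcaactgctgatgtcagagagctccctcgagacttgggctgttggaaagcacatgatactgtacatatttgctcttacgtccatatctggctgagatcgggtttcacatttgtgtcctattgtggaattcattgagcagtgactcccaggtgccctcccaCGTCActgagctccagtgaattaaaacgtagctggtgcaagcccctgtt
Otop1, chr5:38277154-38277403, plus strand: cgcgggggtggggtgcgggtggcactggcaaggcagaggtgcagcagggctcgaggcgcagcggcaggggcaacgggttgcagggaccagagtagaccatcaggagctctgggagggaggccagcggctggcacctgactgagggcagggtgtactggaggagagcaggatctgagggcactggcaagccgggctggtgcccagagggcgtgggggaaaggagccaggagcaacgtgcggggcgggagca
The Dio2 window held the whole TGACGTCA element, which 1.55% of all 32851 promoter windows of this length hold. The Ppargc1a window held 1 copy of TGACG, found in 17.8% of windows, in its reverse complement. Ucp1 held 1 copy of TGACG and 1 of AGGTCA, which is in 14.0% of windows. No match was found in the Otop1 and Prdm16 windows, and none to CCCNNGGG (11.8% of windows) in any of the 5. Each gene is given with a single window, so elements before any other start of a gene, or farther upstream, would not be seen.

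In BAT, 8 of the 10 genes were lower in the KO mice than in controls at an adjusted p of 0.05 in limma, and none was higher. Those lower were Ucp1, Cidea, Dio2, Elovl3, Otop1, Ppargc1b, Prdm16 and Ebf2, whereas Kcnk3 and Ppargc1a did not pass. Of all 14270 genes tested in BAT, 33.9% were lower and 27.5% higher, and the median log2 change was -1.09 over the 10 genes and -0.081 over all genes. All 10 were well above background on all 8 BAT arrays. Of the genes called in BAT, 44.8% were higher, against 79.6% with spike-in scaling, which moved the median of all genes by 0.54, and 17.7% with Actb and Rplp0 scaling, which moved it by -0.59. Relative to that median, 9 of the 10 genes lay below it under each of these scalings.

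**Figure D1:**
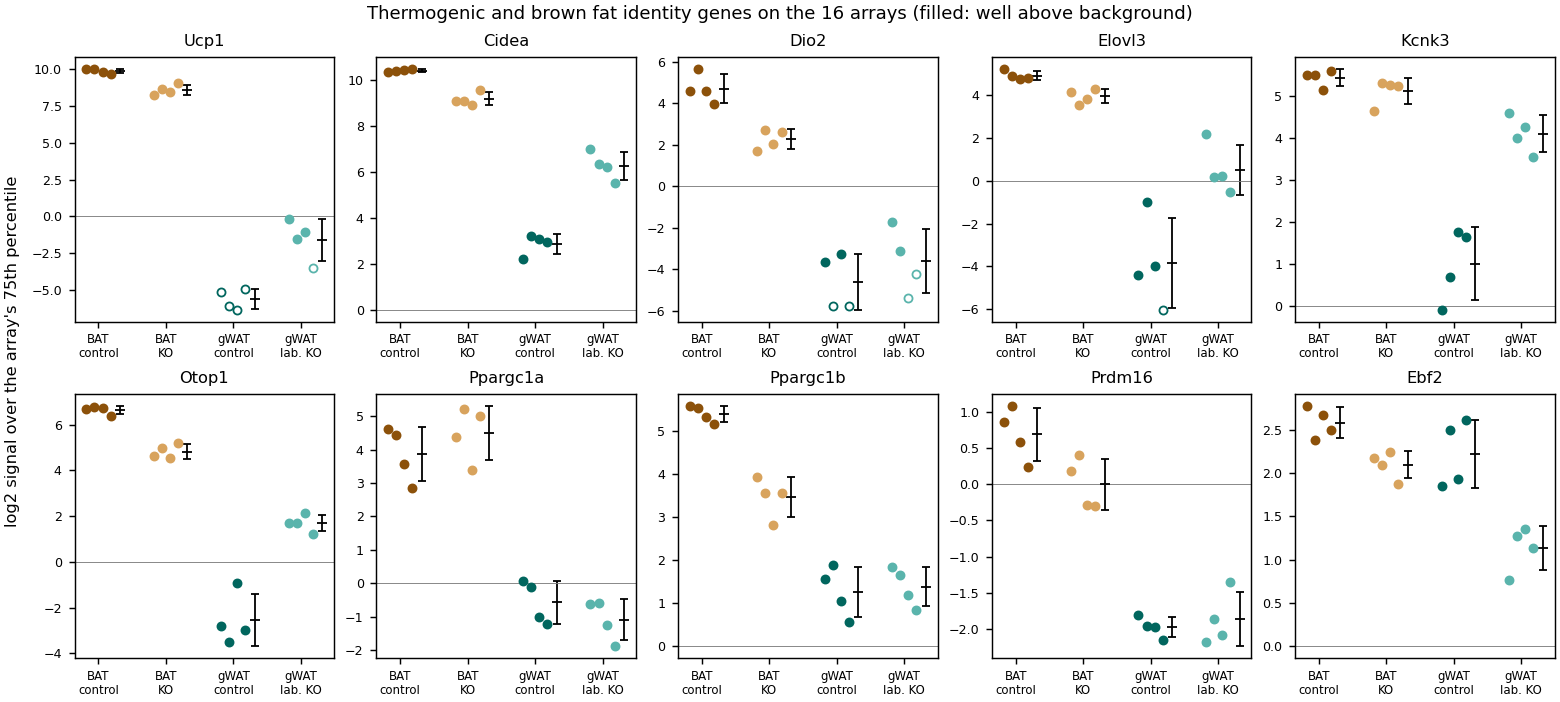
Log2 signal over the array's 75th percentile (vertical axis, a separate range for each gene) of the 10 genes on all 16 arrays, by tissue and genotype. Each point is an array, filled where the probe was well above background, and the bars give the mean and SD of 4 arrays. Cidea, Kcnk3 and Otop1 lay highest in BAT controls and lowest in gWAT controls, and the gWAT arrays labelled KO lay between them.

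In gWAT, 4 of the 10 genes were higher in the arrays labelled KO than in controls, namely Cidea, Elovl3, Kcnk3 and Otop1, and 1, Ebf2, was lower. Over the 14135 genes that were tested there, 9.96% passed as higher and 7.86% as lower. The higher genes made up 55.9% of those called, which became 95.3% with spike-in scaling and 71.0% with median centring, which moved the median of all genes by 0.44 and 0.12, and both left the 4 higher genes called. With the slide as a block only Cidea and Otop1 passed. Over all 14135 genes, 66 were higher and 118 lower with this block, against 1408 and 1111 without it. Ppargc1a, Ppargc1b and Prdm16 did not pass, and Ucp1 and Dio2 were not tested because they were not well above background on all 4 arrays of either group. Elovl3 entered the test through the arrays labelled KO, since only 3 of 4 controls were above background, so these counts describe 8 genes and not all 10. White adipocyte markers were 4 of 4 above background on all gWAT arrays, and their summed level was 275 to 422 in the arrays labelled KO against 538 to 836 in controls. The sum was mostly Retn, which encodes resistin, with a mean log2 level of 9.10 in gWAT controls. In limma Retn (-0.95, adjusted p = 0.0131) and Nnat (-3.10, adjusted p = 0.0187) were lower. Lep (-0.83, adjusted p = 0.0563) and Npr3 (-0.39, adjusted p = 0.245) did not pass. The summed skeletal muscle markers were 39.8 to 67.1 against 16.3 to 42.7, with Myh1, Myh4 and Ckm above background on none of the 4 arrays labelled KO. Of the 6 muscle markers tested none was higher and 1, Myl1, was lower (-0.70, adjusted p = 0.03), while Acta1, the actin of muscle, differed by 2.20 and did not pass (adjusted p = 0.0504). Their part in the result was not tested.

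**Figure D2:**
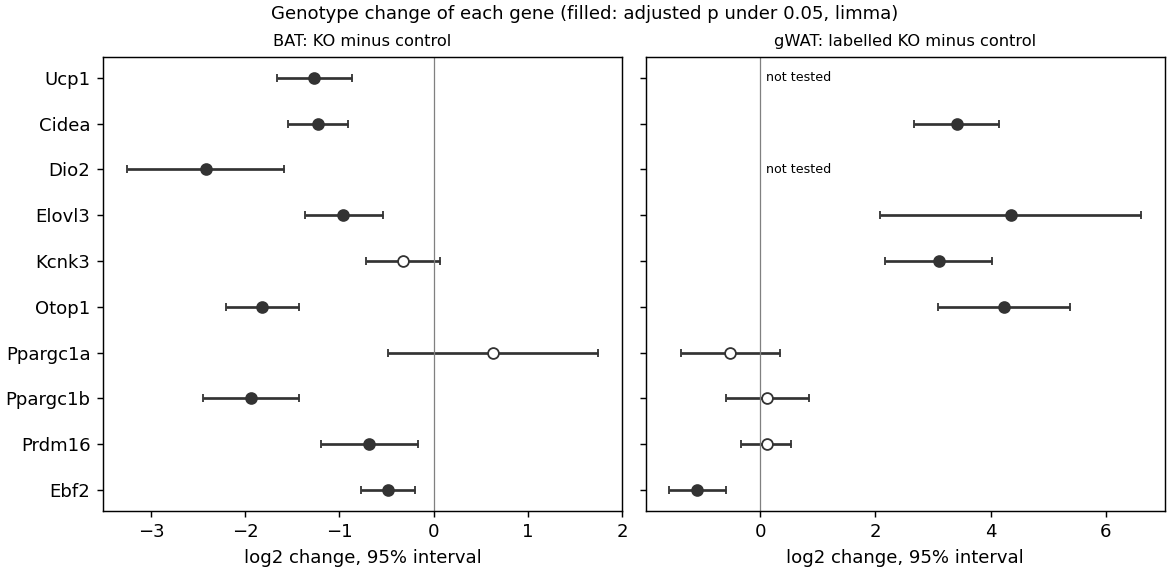
Log2 change between genotypes (horizontal axis) of the brightest probe of each gene, with its 95% interval from limma, in BAT (left) and gWAT (right); filled points passed an adjusted p of 0.05. In BAT 8 filled points lie left of 0, and in gWAT 4 lie right of 0 and 1 left. Ucp1 and Dio2 were not tested in gWAT.

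Ucp1 (probe A_51_P426353) is the uncoupling protein itself. In BAT it stood at 10, 10, 9.83 and 9.72 in the controls and at 8.26, 8.69, 8.46 and 9.08 in Adipo-Pgam1 KO mice. The groups did not overlap, and the youngest KO mouse, replicate 4, was the highest of its group. The log2 difference was -1.27 (standard error 0.17, adjusted p = 0.000308), or 0.416 of the control level. Within the slide it was -1.09 (adjusted p = 0.0152), but under quantile normalization it was -0.38 and did not pass (adjusted p = 0.0681).

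In gWAT, Ucp1 was well above background on none of the 4 control arrays and on 3 of the 4 arrays labelled KO. Its signal was -5.12, -6.13, -6.34 and -4.95 in the controls and -0.15, -1.53, -1.09 and -3.54 in the arrays labelled KO, where the array at -3.54, replicate 4, was the one without the mark. All arrays labelled KO lay above all controls (exact permutation test, two-sided, p = 0.0286, the smallest that 4 against 4 can give), and the measured means, -5.63 ± 0.70 (SD, n = 4) and -1.58 ± 1.43 (SD, n = 4), differed by 4.06. Since the control level is only a bound, Ucp1 was at least 7.35-fold higher in the arrays labelled KO. This bound sets their mean against the mean, per control array, of the lowest signal among probes well above background or the probe's own signal where higher, and it takes replicate 4 of the arrays labelled KO at its own signal. It holds for the processed signal: with normexp and an offset of 50, which raises every dim signal, the means differed by 1.78. On the slide of the arrays labelled KO, all 4 lay above the single control, by 3.38 on average.

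**Figure D3:**
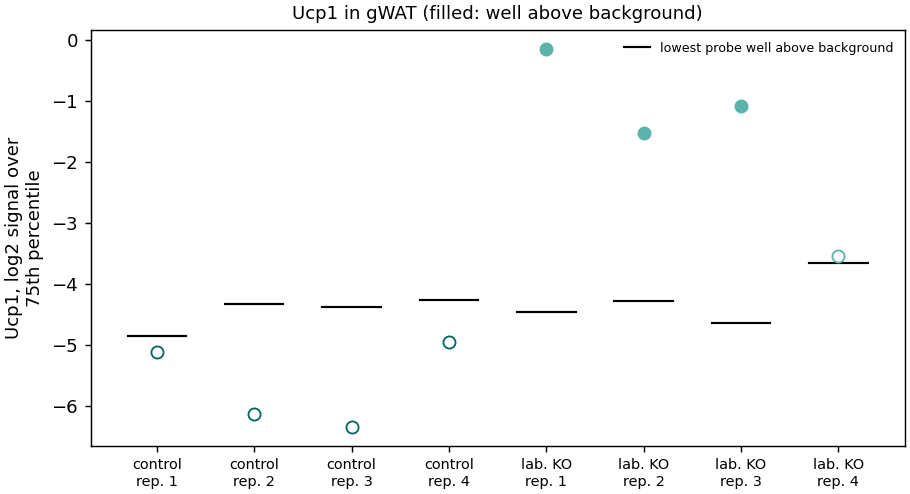
Ucp1 signal (log2 over the 75th percentile) on each of the 8 gWAT arrays; filled points were well above background, and each black line is the lowest signal of any probe well above background on that array. The 4 controls lie below their lines, and 3 of the 4 arrays labelled KO lie far above theirs.

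Dio2 (A_51_P208603) encodes the deiodinase that makes active thyroid hormone inside the brown adipocyte, and it had the largest change of the 10 in BAT. Its level in BAT was 4.60, 5.66, 4.62 and 3.96 in controls and 1.72, 2.73, 2.05 and 2.64 in Adipo-Pgam1 KO mice, without overlap. The log2 difference was -2.42 (standard error 0.36, adjusted p = 0.000499), or 0.186 of the control level. Dio2 passed in all 22 alternatives tried for BAT, with changes between -3.02 and -1.67. In gWAT it was near background in both genotypes, well above it on 2 of 4 arrays in each. The values there, -3.64, -5.76, -3.25 and -5.76 in controls and -1.74, -3.12, -5.37 and -4.23 in the arrays labelled KO, overlapped (exact permutation test, two-sided, p = 0.429). A difference in gWAT was not detectable at this signal.

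Cidea and Elovl3 act on lipids: Cidea is a protein of the lipid droplet surface, and Elovl3 lengthens very long-chain fatty acids. Cidea (A_51_P199168) stood in BAT at 10.34, 10.37, 10.45 and 10.47 in controls and at 9.10, 9.09, 8.92 and 9.58 in KO mice. Every KO array lay below every control. The log2 difference was -1.23 (standard error 0.14, adjusted p = 0.000121), but -0.22 under quantile normalization, where it did not pass (adjusted p = 0.0545). In gWAT, Cidea was 2.19, 3.20, 3.05 and 2.95 in controls and 6.99, 6.32, 6.21 and 5.51 in the arrays labelled KO. The lowest array labelled KO was well above the highest control, and the change was 3.41 (standard error 0.33, adjusted p = 0.00126), a 10.6-fold difference. It passed in all 22 alternatives, with values from 3.17 to 3.86.

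Elovl3 (A_66_P123297) stood in BAT at 5.21, 4.88, 4.73 and 4.78 in controls and at 4.12, 3.54, 3.82 and 4.29 in KO mice, again without overlap. Its change was -0.96 (standard error 0.18, adjusted p = 0.00179), and it did not pass with spike-in scaling (-0.42, adjusted p = 0.0663) or within the slide (-0.84, adjusted p = 0.0504). The gWAT controls were spread widely, at -4.40, -0.99, -3.97 and -6.01, the last not well above background, against 2.18, 0.16, 0.22 and -0.54 in the arrays labelled KO. Control replicate 2, at -0.99, came close to the lowest array labelled KO. The measured change of 4.35 had a standard error of 1.0 (adjusted p = 0.0219), in a test that Elovl3 entered through its higher group, and it was 3.91 with the control below background at its bound. The change passed in 15 of 21 alternatives. It failed in limma without the filter on dim probes (adjusted p = 0.0541) and in the methods' t-test (adjusted p = 0.0664). It did not pass without control replicate 3 (adjusted p = 0.0519), or without replicate 1 (adjusted p = 0.0644) or replicate 3 (adjusted p = 0.0537) of the arrays labelled KO, nor within the slide, where it was 6.51 (adjusted p = 0.0674).

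Kcnk3 and Otop1 form ion channels, Kcnk3 a potassium channel with 2 pore domains and Otop1 a proton channel. In BAT, Kcnk3 (A_52_P639402) was 5.49, 5.50, 5.13 and 5.59 in controls and 4.64, 5.29, 5.26 and 5.23 in KO mice. The ranges overlapped, and KO replicate 1 stood apart from the other 3. The change of -0.32 (95% interval -0.72 to 0.07, adjusted p = 0.137) did not pass. It was -0.17 without KO replicate 1, 0.22 with spike-in scaling and -0.91 with Actb and Rplp0 scaling, which passed (adjusted p = 0.000324). In gWAT, Kcnk3 was -0.09, 0.69, 1.76 and 1.63 in controls and 4.58, 3.99, 4.26 and 3.55 in the arrays labelled KO. These did not overlap, and the log2 difference was 3.10 (standard error 0.41, adjusted p = 0.00363), or 8.55-fold. Within the slide it was 2.47 and did not pass (adjusted p = 0.114).

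Otop1 was measured by 2 probes, both well above background on all 16 arrays. With the brighter, A_55_P2805868, the BAT values were 6.70, 6.77, 6.74 and 6.37 in controls and 4.61, 4.97, 4.54 and 5.19 in KO mice. With the other, A_55_P2078138, they were 2.01, 1.92, 1.71 and 1.63 against -0.31, 0.22, -0.32 and 0.28. Neither probe showed overlap in BAT, and their changes were nearly equal, -1.82 (standard error 0.17, adjusted p = 4.29e-05) and -1.85 (standard error 0.18, adjusted p = 5.49e-05). In gWAT the probes gave different answers. The brighter probe was -2.79, -3.52, -0.90 and -2.96 in controls and 1.72, 1.69, 2.12 and 1.24 in the arrays labelled KO, which did not overlap and differed by 4.24 (standard error 0.50, adjusted p = 0.00267). The other was -3.59, -2.36, -2.32 and -2.88 in controls and -2.45, -2.39, -1.95 and -2.67 in the arrays labelled KO, which overlapped, and its change of 0.42 (standard error 0.29, 95% interval -0.23 to 1.08) did not pass (adjusted p = 0.326). Averaged over both probes, the gWAT change was 2.33 (adjusted p = 0.00515). The scanner files hold no probe sequences, so the part of the transcript that each probe reads is not known here.

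**Figure D4:**
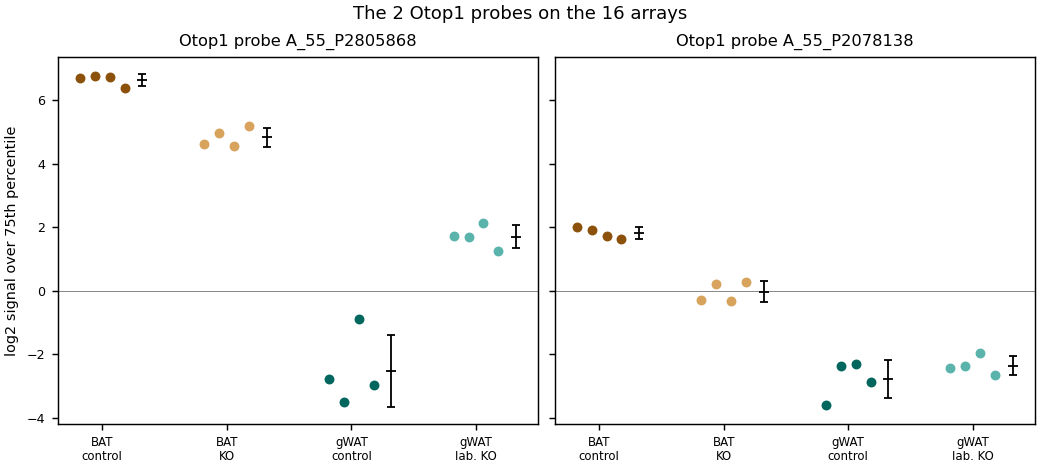
Log2 signal over the 75th percentile of the 2 Otop1 probes on the 16 arrays, by tissue and genotype, with the mean and SD of each group of 4. Both probes fall between the genotypes in BAT, whereas in gWAT the brighter probe (left) is higher in the arrays labelled KO and the ranges of the other overlap.

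The coactivators Ppargc1a and Ppargc1b, which bind nuclear receptors and drive mitochondrial genes, differed from each other in BAT. Ppargc1b (A_51_P294891) was 5.58, 5.54, 5.33 and 5.18 in BAT controls and 3.93, 3.56, 2.82 and 3.57 in KO mice. All KO arrays lay below all controls, and the change was -1.94 (standard error 0.22, adjusted p = 0.000119), or 0.261 of the control level. Its second probe, A_65_P02810, changed by -1.54 (adjusted p = 0.000162). Ppargc1a (A_51_P279038), the coactivator that the cold induces, was 4.61, 4.43, 3.57 and 2.85 in controls and 4.39, 5.20, 3.39 and 5.01 in KO mice. Both groups were spread widely and overlapped. The change was 0.63 (95% interval -0.48 to 1.75, adjusted p = 0.286), with 0.51 for the second probe, and within the slide 1.65 (adjusted p = 0.0782). It passed with spike-in scaling alone, at 1.17 (adjusted p = 0.0483). The skeletal muscle markers, of a tissue that also expresses Ppargc1a, were uneven in BAT of KO mice, with summed levels of 143, 7.40, 28.4 and 11.5 on replicates 1 to 4 against 40.4 to 49.2 in controls. The control sum was mostly Myl1, with a mean log2 level of 5.41 in BAT controls. Acta1, Tnnt3, Tnni2 and Mylpf had means of -2.83 to -2.05 there. Myh1, Myh4, Ckm and Ryr1 were above background on no BAT control. Of the 6 muscle markers tested in BAT, 3 were higher in KO mice and 1, Myl1, was lower (-2.04, adjusted p = 0.00328). Their part in the Ppargc1a values was not tested.

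In gWAT neither coactivator passed. Ppargc1a was 0.06, -0.12, -1.0 and -1.22 in controls and -0.63, -0.59, -1.25 and -1.88 in the arrays labelled KO, a difference of -0.52 (95% interval -1.37 to 0.34, adjusted p = 0.365). Ppargc1b was 1.57, 1.88, 1.04 and 0.55 against 1.84, 1.66, 1.18 and 0.85, a difference of 0.12 (95% interval -0.60 to 0.85, adjusted p = 0.822). The ranges overlapped for both. For their second probes the differences were -0.83 (adjusted p = 0.145) and -0.23 (adjusted p = 0.655).

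Prdm16 and Ebf2 are the lineage regulators. Prdm16 (A_51_P514139) was 0.86, 1.09, 0.59 and 0.24 in BAT controls and 0.19, 0.41, -0.29 and -0.30 in KO mice. The ranges overlapped, and the change was -0.69 (standard error 0.23, adjusted p = 0.0264). It passed in 14 of 22 alternatives. The methods' t-test (adjusted p = 0.0583) and limma with the slide as a random block (adjusted p = 0.0609) were among those where it did not. This call was lost without control replicate 1 (adjusted p = 0.0624), control replicate 2 (0.0681), KO replicate 3 (0.0695) or KO replicate 4 (0.0737), and within the slide, where the change was -0.23 (adjusted p = 0.566), and with spike-in scaling it was -0.15 (adjusted p = 0.632). In gWAT, Prdm16 was -1.81, -1.96, -1.98 and -2.16 in controls and -2.18, -1.86, -2.09 and -1.35 in the arrays labelled KO. The difference was 0.11 (95% interval -0.33 to 0.54, adjusted p = 0.733).

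Ebf2 (A_51_P386562), a factor that opens chromatin at brown fat genes, was lower in both tissues. In BAT it was 2.78, 2.38, 2.67 and 2.50 in controls and 2.18, 2.09, 2.25 and 1.88 in KO mice, a change of -0.48 (standard error 0.13, adjusted p = 0.00923). In gWAT it was 1.85, 2.50, 1.93 and 2.62 in controls and 0.77, 1.27, 1.36 and 1.14 in the arrays labelled KO, a change of -1.09 (standard error 0.22, adjusted p = 0.0144). The groups overlapped in neither tissue. With spike-in scaling neither change passed, at 0.06 in BAT (adjusted p = 0.799) and -0.64 in gWAT (adjusted p = 0.066), and neither did within the slide, at -0.40 (adjusted p = 0.138) and -1.49 (adjusted p = 0.0729). Ebf2 was the only one of the 10 to pass as lower in gWAT.

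**Figure D5:**
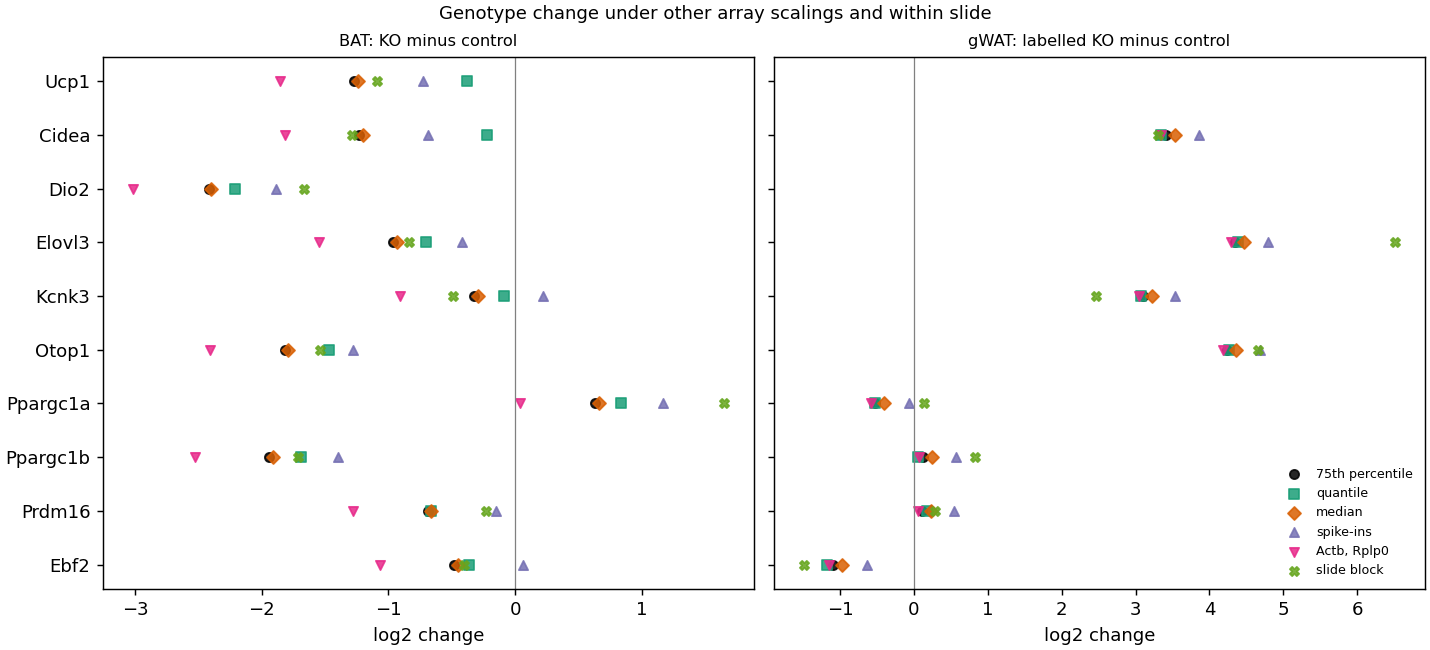
Log2 change between genotypes (horizontal axis) of each gene in BAT and gWAT under the 75th percentile, 4 other array scalings, and the slide as a block. The gWAT changes of Cidea, Otop1, Elovl3 and Kcnk3 stay right of 0 in all 6, and in BAT the values of Kcnk3 and Ebf2 cross 0 with the spike-ins; Ucp1 and Dio2 were not tested in gWAT.

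The difference between the tissues in the genotype change was tested over all 16 arrays. It was more positive in gWAT for 8 of the 10 genes and more positive in BAT for none, against 27.3% and 21.0% of 14795 genes. Of the genes called, 56.6% were more positive in gWAT, or 83.7% with Actb and Rplp0 scaling, which moved their median by 0.53. By the brightest probes the difference was largest for Otop1, at 6.05 (standard error 0.58, adjusted p = 6.52e-06). For Otop1 it was 2.27 with the second probe (adjusted p = 0.000205) and 4.16 averaged over both (adjusted p = 8.55e-06). For Ucp1 it was 5.32 (standard error 0.75, adjusted p = 8.08e-05), with the gWAT control level below background, and 4.14 when that level is taken at its bound. For Elovl3 it was 5.30 (standard error 1.11, adjusted p = 0.00137), or 4.87 with the gWAT control below background at its bound, and for Cidea 4.64 (standard error 0.38, adjusted p = 2.59e-06). Kcnk3 differed by 3.42 (adjusted p = 8.09e-05). Dio2 entered this test through BAT alone, being above background on 2 of 4 gWAT arrays of each genotype, so that its 3.41 (adjusted p = 0.0125) rests in part on gWAT values at background. It was 2.68 with the gWAT controls at their bound, and did not pass with the slide as a block (adjusted p = 0.101). Ppargc1b differed by 2.06 (standard error 0.42, adjusted p = 0.00109). For Prdm16 the difference of 0.80 barely passed (adjusted p = 0.0459), and it did not when any of 10 of the 16 arrays was left out. Ppargc1a (-1.15, adjusted p = 0.169) and Ebf2 (-0.61, adjusted p = 0.0656) did not pass, Ebf2 having done so with quantile normalization (-0.81, adjusted p = 0.0153), with normexp (-0.69, adjusted p = 0.0269) and without gWAT control replicate 1 (adjusted p = 0.0281) or 3 (adjusted p = 0.0397).

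The depots were then compared within each genotype. In littermate controls 9 of the 10 genes were higher in BAT than in gWAT, as were 35.9% of all genes, and Ebf2 was the exception. Of the genes called in this comparison 54.1% were higher in BAT, or 70.6% with Actb and Rplp0 scaling and 41.8% with spike-in scaling. Ucp1 was at least 20800-fold higher in BAT controls, since it was above background on no gWAT control. This bound, 14.34 on the log2 scale, holds for the main scale only. Over the 6 other scalings the measured difference ran from 12.63 to 15.85. Otop1 differed by 9.19 on the log2 scale and Cidea by 7.56. Dio2 and Elovl3, above background on 2 and 3 of the 4 gWAT controls, differed by 9.31 and 8.74 as measured and by 8.58 and 8.30 with the others at their bound. These were followed by Kcnk3 and Ppargc1a at 4.43 each and Ppargc1b at 4.15. Prdm16 differed least of those called, by 2.67 (standard error 0.22, adjusted p = 9.21e-08). Ebf2, at 2.58 ± 0.18 (SD, n = 4) in BAT and 2.22 ± 0.39 (SD, n = 4) in gWAT, differed by 0.36 (95% interval -0.03 to 0.75, adjusted p = 0.0962), and it passed only without gWAT control replicate 4 (adjusted p = 0.0282) or with Actb and Rplp0 scaling (adjusted p = 0.0049).

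Between the KO arrays all 10 genes were higher in BAT than in gWAT, against 22.9% of all genes (49.8% of those called, or 28.1% with Actb and Rplp0 scaling and 32% with spike-in scaling). These differences were smaller than in controls for most genes. They were 10.20 for Ucp1, 5.90 for Dio2, 3.44 for Elovl3, 3.14 for Otop1, 2.92 for Cidea and 1.01 for Kcnk3. As measured, those of Ppargc1a (5.59 against 4.43) and Ebf2 (0.96 against 0.36) were larger than in controls. The tissue difference in the genotype change, tested above, is the same contrast. All BAT arrays of KO mice lay on a single slide, and all gWAT arrays labelled KO on another, scanned on a different day. Tissue thus coincided with slide and scan day between the KO arrays. The slide block could separate them only through the gWAT controls, of which replicate 4 alone lay on the slide of the arrays labelled KO. For Kcnk3 the call (adjusted p = 0.0255) was lost without any one of 5 KO arrays, BAT replicates 2 to 4 and gWAT replicates 2 and 4, with adjusted p up to 0.0736. With the slide as a block 5 genes passed, Ucp1, Cidea, Ppargc1a, Prdm16 and Ebf2. Of all 14795 genes, 821 were higher in BAT with this block, against 3385 without it. Elovl3 was then 0.55 (adjusted p = 0.813) and Ppargc1b, 2.09 without the block, 1.14 (adjusted p = 0.164). Dio2, above background on 2 of 4 gWAT arrays here too, was 5.57 with the others at their bound.

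The order of the 4 groups differed between the genes. Ucp1, Cidea, Elovl3, Otop1 and Kcnk3 were highest in BAT controls, then BAT of KO mice, then the gWAT arrays labelled KO, and lowest in gWAT controls, where the step between the BAT groups was within the spread for Kcnk3. Dio2, Ppargc1b and Prdm16 shared this order of means, but their gWAT groups did not differ beyond their spread. Ppargc1a was highest in BAT of KO mice and lowest in the gWAT arrays labelled KO, and only the step between the tissues passed. Ebf2 ran from BAT controls to gWAT controls, BAT of KO mice and the gWAT arrays labelled KO, with overlapping ranges of 1.85 to 2.62 and 1.88 to 2.25 for the middle groups.

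Other genes of the program were taken from lists chosen by name, with earlier results of these data known. Their counts are therefore a description and not independent support for the 10 genes. Their counts stand against 33.9% lower and 27.5% higher of all genes tested in BAT, and 9.96% higher and 7.86% lower in gWAT, and with lists this short a share near these is no result about a list. Of 20 other thermogenic genes, 18 were lower and 2 higher in BAT of KO mice, with a median change of -1.34. Slc27a2, which activates very long-chain fatty acids, fell by 3.31 (adjusted p = 6.53e-06) and the β3-adrenergic receptor Adrb3 fell by 2.19 (adjusted p = 0.000978), whereas Bmp8b, a secreted factor of brown fat, rose by 3.47 (adjusted p = 0.000582). With spike-in scaling 13 were lower and 2 higher, where 1848 of all 14270 genes were lower and 7212 higher. In gWAT 19 were tested, and in the arrays labelled KO 11 were higher and 1 was lower, with a median of 0.92. The muscle-type carnitine palmitoyltransferase Cpt1b was higher there by 4.23 (adjusted p = 0.00103), the thioesterase Acot11 by 3.48 (adjusted p = 0.00298) and the fatty acid carrier Fabp3 by 2.81 (adjusted p = 0.0175). The change was more positive in gWAT for 14 and in BAT for 1, against 27.3% and 21.0% of all genes. In controls 18 of 20 were higher in BAT than in gWAT and 1 lower, and between the KO arrays 16 and 1. Of all genes, 35.9% were higher in BAT in controls and 22.9% between the KO arrays. A higher level in BAT is close to what defines such a list.

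Of 17 lineage and coregulator genes tested in BAT, 5 were lower and 1 higher, beside 33.9% and 27.5% of all genes, with a median of -0.23. With spike-in scaling none was lower and 6 were higher. With Actb and Rplp0 scaling 15 were lower, as were 8892 of all 14270 genes. The direction of this list thus depends on the scaling. Zfp423, which keeps white adipocytes from turning thermogenic, and Cebpb, a partner of Prdm16, changed by -0.88 (adjusted p = 0.00124) and -0.83 (adjusted p = 0.00436), and Zfp516, an activator of Ucp1, was higher by 0.86 (adjusted p = 0.00625). In gWAT 3 of 16 were lower in the arrays labelled KO and none higher, beside 7.86% and 9.96% of all genes. With spike-in scaling 1 was lower and 3 higher, where 241 of all 14135 genes were lower and 4847 higher. The 3 lower genes were the corepressor Nrip1 (-1.12, adjusted p = 0.00318), Zfp423 (-0.67, adjusted p = 0.0348) and Twist1 (-0.61, adjusted p = 0.0446), which represses Ppargc1a targets. Zic1, a marker of interscapular brown fat, was above background on no gWAT array and at least 66-fold higher in BAT controls, and at least 46-fold higher in BAT of KO mice than in the gWAT arrays labelled KO.

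Of the beige genes, 9 were tested in BAT, where 4 were higher and 2 lower, and 7 in gWAT, where 2 were higher and none lower. The other 5 in gWAT were not called, and Tmem26, Tnfrsf9, Cited1 and Tbx15 were not tested there. The list medians were 0.55 in BAT and -0.06 in gWAT, against -0.08 and 0.05 over all genes. The oxygen-sensing prolyl hydroxylase Egln3 changed by -2.95 in BAT of KO mice (adjusted p = 1.87e-06) and by 2.12 in the gWAT arrays labelled KO (adjusted p = 0.00465), and the tissues differed by 5.08 (adjusted p = 1.04e-06). Mtus1 was the other that was higher in gWAT, by 0.92 (adjusted p = 0.0121). Ear2, a ribonuclease of eosinophils and macrophages, was higher in BAT of KO mice by 3.40 (adjusted p = 0.00124), beside the macrophage markers given above, and Klhl13 by 2.35 (adjusted p = 3.77e-05). The transcription factor Tbx15 was at least 3.29-fold higher in BAT than in gWAT of controls, with no gWAT array above background.

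Among relatives of the 10 genes by family, 24 were listed and 16 tested in BAT, where 6 were higher and 8 lower (6 and 3 with spike-in scaling), beside 27.5% and 33.9% of all genes. Ucp2, the widely expressed uncoupling protein, rose by 2.34 (adjusted p = 5.88e-06), opposite to Ucp1. Cidec, the lipid droplet protein of white fat, fell by 2.40 (adjusted p = 5.46e-06), as Cidea did. Elovl4 was above background on none of the BAT arrays of KO mice and was at least 3.24-fold higher in controls. In gWAT 14 were tested, and in the arrays labelled KO 4 were higher and 1 was lower. Elovl6, which lengthens palmitate, was higher by 2.40 (adjusted p = 0.0167) and Ucp3 by 0.92 (adjusted p = 0.0273), and Ebf1 changed by -0.52 (adjusted p = 0.0349), as Ebf2 was. Otop2 and Otop3, the other otopetrins, were not well above background on all arrays of any group.

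Over the 16 arrays, with each gene centred on its own mean, the 3 genes with the smallest root mean square distance to Cidea among 14795 were Cpt1b (0.54 log2 units), Cox7a1 (0.59), a subunit of cytochrome c oxidase, and Aspg (0.69). For Ppargc1a they were Actn2 (0.70), the α-actinin of muscle, the orphan receptor Nr4a2 (0.86) and 5930403L14Rik (0.93), and for Prdm16 Nepn (0.23), Lrfn3 (0.31) and L1td1 (0.32). The distances are smaller where a gene varies less, so they are not comparable between Cidea and Prdm16. Actn2 averaged 2.69 above its mean in BAT of KO mice and 1.84 in BAT controls, as Ppargc1a stood at 2.82 and 2.19.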

How the data were processed

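Total RNA of BAT and gWAT was labelled with Cy3 and hybridized to Agilent SurePrint G3 Mouse GE arrays, and the authors deposited the signal intensity of each spot as Agilent Feature Extraction 10.7.1.1 gave it, with local background subtracted, and the scanner's marks. The labels give 100 ng of RNA per array, and the study's methods another amount. A further deposited table, normalized by the authors and used here as an alternative, holds linear intensity over the array's 75th percentile, so its scale and direction are known and no gene centring was found. No value column was left out (0).

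Spots marked as irregular or as outliers were left out, spots of a probe were averaged, and values were log2 signal over the 75th percentile of the 56605 non-control probes. The scanner files carry RefSeq accessions, of which 91.9% were named through the RefSeq gene table, and the brightest probe of a gene stood for it over the 16 arrays. Tested genes were well above background on each of the 4 arrays of 1 group or more. Groups were compared with limma 3.58.1 in R 4.3.3, within each tissue for genotype and over all 16 arrays for the tissue contrasts, with Benjamini-Hochberg adjustment over all genes and a threshold of 0.05. The fits were tested on simulated data. Labels do not say whether BAT and gWAT came from the same mice. Precision is limited by how many arrays there are. Alternatives were quantile, median, spike-in, and Actb and Rplp0 scaling, normexp (offset 50, on the median signal, the files holding no mean signal), the deposited table, no filter and a filter on all arrays, the mean of detected probes, every probe as a feature, slide as a fixed or random block, the replicate block, the methods' t-test with adjustment, and leaving out each array. The genes and lists were chosen with earlier results of these data known. Named from each list were up to 3 genes a comparison with the largest change past the threshold. Promoter windows came from RefSeq (GRCm38.p6).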

Additional observations from a re-analysis of the deposited data

Results flagged for a closer look

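In BAT of Adipo-Pgam1 KO mice, Kcnk3 on replicate 1, at 4.64, lay far from the other 3 arrays of its group, 5.23 to 5.29. It was the 1 such case among 40 groups of 4 examined, and chance alone gives about 1 in 20. The same array had the highest summed skeletal muscle markers of BAT, 143.

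The genotype change differed between gWAT, by its labels, and BAT for 8 genes in the interaction test over 16 arrays. The difference, gWAT minus BAT on the log2 scale, was 4.64 for Cidea, 3.42 for Kcnk3, 6.05 for Otop1, 2.06 for Ppargc1b and 0.80 for Prdm16. For the genes that some gWAT controls did not measure it was 5.32 for Ucp1 (0 of 4 above background), 3.41 for Dio2 (2 of 4) and 5.30 for Elovl3 (3 of 4), or 4.14, 2.68 and 4.87 with those controls at their bound, a setting added after the data were seen. Pgam1 itself differed in the same direction, by 2.69 (limma, adjusted p = 2.59e-06).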

How the results depend on the processing

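Of 1276 values of single genes recomputed under alternatives, 1211 kept their direction and their side of the threshold, 50 lost the call, 8 gained one and 7 changed sign, all 7 for changes that were small or not called, except Ebf2. In BAT, spike-in scaling left 5 genes lower and turned Kcnk3 to 0.22 and Ebf2 to 0.06, and the slide as a fixed block also left 5. In gWAT, the slide as a fixed block left 2 higher and 0 lower, beside 66 and 118 of all 14135 genes. It turned Ppargc1a to 0.14, and spike-in scaling left 0 lower. Ppargc1b in gWAT was -0.05 over the mean of detected probes, and -0.11 to 0.33 when single arrays were left out, negative without control replicate 4 (-0.11) or KO replicate 1 (-0.03). Prdm16 in gWAT was -0.07 to 0.21, negative without KO replicate 4 (-0.07). The filter on all arrays left 5 genes more positive in gWAT, since it tested fewer genes, and between KO arrays the slide as a fixed block left 5 higher in BAT. Apart from these constructions the cause was not tested.

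Leaving out single arrays gave 7 to 8 genes lower in BAT, 3 to 5 higher and 1 lower in gWAT, 7 to 8 more positive in gWAT, 9 to 10 higher in BAT of controls and 9 to 10 higher in BAT of KO mice. Ucp1 in gWAT differed by 3.58 to 4.71, and its exact permutation p was 0.0571 without any 1 of the controls, and by 1.78 with normexp. With the replicate block 8 genes were lower in BAT, 4 higher and 1 lower in gWAT, 7 more positive in gWAT, and 9 higher in BAT of both genotypes. The labels do not say that a number marks a mouse, and the numbers were not used as pairs. Same-numbered BAT and gWAT arrays of the same genotype deviated together with correlations of -0.116 to 0.254. Within a tissue, same-numbered arrays of different genotype, which cannot be the same mouse, gave -0.119 to 0.514. Not every array correlated best with its own number. The methods' t-test was not run for the interaction.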
